A study of Homo sapiens with 8 samples.

Results

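UM-UC3, an established human bladder cancer (BLCA) line, was followed over 4 doses of melatonin, with 1 library for each of 0 (DMSO), 1, 2 and 4 mM. The members are the 11908 of 60612 genes whose mean over these 4 libraries was at least 1 FPKM, a read density that is corrected for transcript length and for library size. Of them, 10736 were protein coding, 698 were long noncoding RNAs and 474 belonged to other classes. The wild-type cells grew in MEM with 10% fetal bovine serum, were exposed for 24 h, and had their RNA sequenced once per dose. No dose therefore has a replicate. Scatter around a dose trend, pooled in part over genes of similar level, is the only measure of error. The second line of the series, 5637, was treated at the same doses in RPMI, so that a difference between the lines and a difference between the media cannot be told apart. The number of cultures per library is not stated, and the doses of 1 line may share a culture, a day or a batch. At the edge of the rule lay AL441992.1, a noncoding gene just inside at a mean of 1.002 FPKM, and PHBP19, just outside at 0.999 FPKM.

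Melatonin is a hormone of the pineal gland that acts through a pair of membrane receptors in the brain and other tissues, and it is also given to cultured tumour cells at doses far above those in blood. Cells meet chemical stress through several programmes that differ in what sets them off. Misfolded protein in the cytosol raises heat shock proteins, and misfolded protein in the endoplasmic reticulum (ER) raises ER chaperones. A block in translation initiation raises ATF4 and its targets in the integrated stress response, while p53 raises inhibitors of the cell cycle. When cells leave the cycle, the genes of DNA replication and mitosis fall together. The receptor genes MTNR1A and MTNR1B were no members: MTNR1A was listed at 0 in each UM-UC3 library, and MTNR1B did not exceed 0.0404 FPKM.

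The UM-UC3 libraries summed to 346772, 349736, 362073 and 395621 FPKM at 0, 1, 2 and 4 mM, and 12011, 11958, 11785 and 11494 genes reached 1 FPKM. The mRNAs of the mitochondrial genome took 9.97, 8.80, 15.4 and 13.2% of these sums, and the part of this share in the results below was not tested. Read depth is unknown, because the deposited values hold no counts. The label was checked against markers. UM-UC3 held 8 of 10 mesenchymal markers at a mean of at least 1 FPKM, led by VIM (vimentin, an intermediate filament) at 1140 to 1211 FPKM, against 5 of 18 luminal and 4 of 14 basal urothelial markers. The defining luminal genes UPK1B, UPK3A and KRT20 and the basal keratin KRT14 were listed at 0 in each library, UPK2 did not exceed 0.132 FPKM, and KRT5 did not exceed 0.132 FPKM. The luminal markers that were members were KRT7, KRT8, KRT18, ERBB2 and PPARG, and the basal ones TP63, CD44, EGFR and ITGA6. In DMSO, KRT18 had 149, CD44 203, PPARG 7.88 and TP63 3.16 FPKM. Absence or a level near 0 thus holds for the uroplakins and keratins named before them, and not for all urothelial markers. Of 8 endothelial markers TIE1 was a member, and of 11 leukocyte markers CD68 was. Of 19 genes that were above 50 FPKM in each 5637 library and under 0.5 in UM-UC3 at DMSO, 18 stayed under 1 FPKM at each UM-UC3 dose. LCP1, which encodes an actin-bundling protein, was the exception at 0.068, 0.092, 0.883 and 3.65 FPKM.

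For each of the 11908 genes limma fitted a straight line over dose on log2(FPKM + 1), and the fold change given below is the fitted difference of 4 mM from DMSO on this scale, which understates the change of low genes. At a Benjamini-Hochberg adjusted p under 0.05, 1679 genes rose (14.1%) and 2357 fell (19.8%). Without the 4 mM library 368 rose and 647 fell, and without the DMSO library 978 and 1666. Fits that leave out 1 library rest on fewer points still, so their p-values tell only how near those points lie to a line. Read straight from the libraries, 718 genes were at least 1 log2 unit higher at 4 mM than in DMSO (6.03%) and 1251 were lower (10.5%).

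The steps between neighbouring doses grew with dose. Between 1 mM and DMSO, 27 genes were higher and 59 lower by at least 1 log2 unit, and the differences of the 11908 genes had an SD of 0.292. Between 2 and 1 mM, 79 genes were higher and 116 lower (SD 0.363). Between 4 and 2 mM, 234 were higher and 265 lower (SD 0.493), although this step also spans the widest gap in dose. Over the 4 doses 2290 genes had a range of at least 1 log2 unit (19.2%). They were sorted by shape. A gene was non-monotone if a step ran against its overall direction by more than 0.25, early if at least 75% of its difference at 4 mM was already present at 2 mM, "only at 4 mM" if less than 25% was, and graded in between. Graded genes made up 1429 of them, with 490 higher and 939 lower at 4 mM than in DMSO (12% of members). Another 256 were early, 77 higher and 179 lower (2.15%). A further 250 were of the shape "only at 4 mM", 106 higher and 144 lower (2.1%), and 355 were non-monotone (2.98%). With a single library per dose a shape describes these 4 libraries and has no test of its own.

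**Figure D1:**
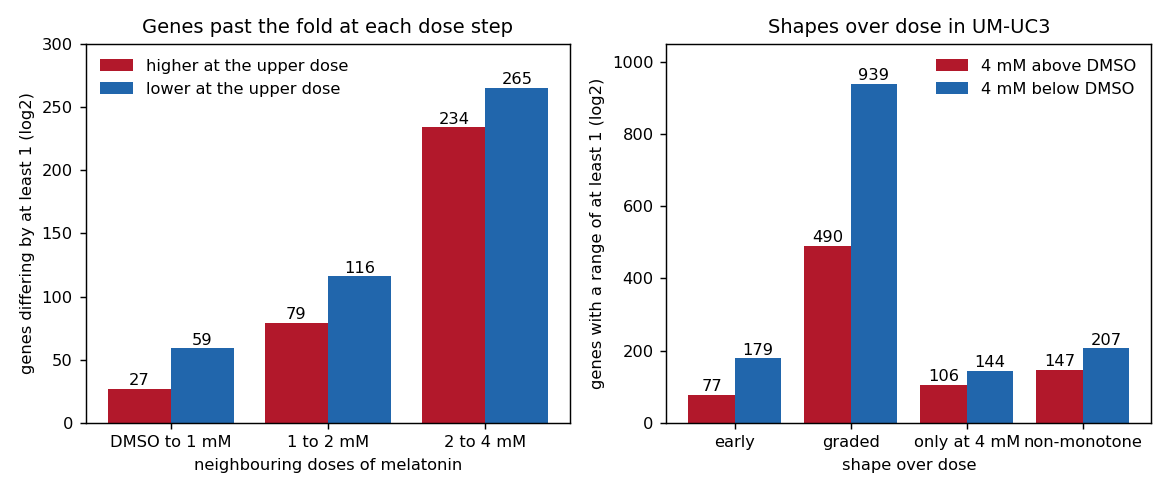
Left, genes (y axis, count) that differed by at least 1 on the log2(FPKM + 1) scale between neighbouring UM-UC3 doses (x axis), higher in red and lower in blue. Right, genes with a range of at least 1 (y axis, count) by shape over dose (x axis), with 4 mM above DMSO in red and below DMSO in blue. The counts grow from 27 and 59 at the first step to 234 and 265 at the last, and 939 of the 1429 graded genes lie below DMSO at 4 mM.

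Early genes had most of their difference by 2 mM. The largest rises among protein-coding genes with a mean of at least 4 FPKM were those of SPX, H2BC5, CDKN1A, DNAJB9 and DNER. SPX, which encodes the secreted peptide spexin, had 1.3, 3.62, 15.2 and 29.7 FPKM at 0, 1, 2 and 4 mM (log2 fold change 3.83, SE 0.5, adjusted p = 0.00388). CDKN1A, the p21 inhibitor of cyclin-dependent kinases, had 11.5, 19.7, 62.9 and 89.6 FPKM (2.96, SE 0.539, adjusted p = 0.0189). Both genes gained more between 1 and 2 mM than between 2 and 4 mM on the log2 scale, by 1.81 against 0.92 for SPX and by 1.63 against 0.50 for CDKN1A. H2BC5, a clustered histone H2B gene, stood at 12.4, 27.1, 71.1 and 120.1 FPKM. DNAJB9, a co-chaperone of the ER, stood at 6.59, 14.0, 34.7 and 43.2 FPKM, and DNER, a transmembrane ligand of Notch, at 2.63, 3.33, 11.7 and 15.6 FPKM. These 3 rose as well, with adjusted p = 0.0023 for H2BC5, 0.0265 for DNAJB9 and 0.00545 for DNER.

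Among early falls, AOX1, an aldehyde oxidase, had 16.8, 4.37, 2.24 and 0.861 FPKM (log2 fold change -3.04, SE 0.523, adjusted p = 0.00827). CAVIN1, a coat protein of caveolae, had 86.9, 51.7, 23.0 and 15.5 FPKM (-2.45, SE 0.310, adjusted p = 0.000784). APOBEC3B, a cytidine deaminase that acts on DNA, had 13.3, 8.76, 2.96 and 1.75 FPKM (-2.47, SE 0.335, adjusted p = 0.000824). In these 3 genes each library was below the one at the next lower dose. IGFBP6, a binding protein of insulin-like growth factors, had 76.9, 22.9, 8.58 and 5.28 FPKM, and TUBA1A, an alpha tubulin, had 60.2, 57.9, 15.2 and 10.8 FPKM. Neither passed the test (adjusted p = 0.0671 for IGFBP6 and 0.0532 for TUBA1A), although their values at 4 mM were far below those in DMSO. The fitted difference of IGFBP6 was -3.39 without the 2 mM library and -2.38 without DMSO. That of TUBA1A was -2.38 without the 1 mM library and -2.55 without the 2 mM library. Both genes passed when the slope was fitted on the 8 libraries of both lines (adjusted p = 0.0147 for IGFBP6 and 0.044 for TUBA1A) and with the logarithm of dose (0.00234 and 0.0411). CDKN1A did not pass without the DMSO library (adjusted p = 0.076) or without the 1 mM library (0.0638), DNAJB9 did not pass without the same libraries (0.0531 and 0.139), and DNER did not pass without DMSO (0.0816).

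Graded genes held the largest differences of the line. EGR1, an immediate early transcription factor, had 3.42, 13.1, 21.4 and 312 FPKM at 0, 1, 2 and 4 mM (log2 fold change 6.01, SE 0.396, adjusted p = 0.00021). NGFR, the p75 receptor of neurotrophins, had 0.490, 1.28, 6.13 and 66.9 FPKM (5.71, SE 0.361, adjusted p = 4.66e-05). PEG10, a gene derived from a retrotransposon, had 8.03, 17.9, 52.8 and 191 FPKM (4.47, SE 0.230, adjusted p = 2.69e-06). Their values climbed at each dose, and in each of them the last step was the largest on the log2 scale. MT1X, a metallothionein that binds zinc and copper, had 32.8, 66.6, 149 and 615 FPKM (4.21, SE 0.206, adjusted p = 2.65e-06). ATF3, a bZIP factor of the stress response, had 7.36, 13.9, 48.5 and 135 FPKM (4.14, SE 0.307, adjusted p = 9.41e-05).

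The promoter window of EGR1 holds a CArG box, a motif that serum response factor binds, in capitals. It starts 105 bases before the annotated start. Only 1 fixed spelling of the box was searched, and another spelling that follows it was left in lower case. The window is chr5:138465229-138465528 of GRCh38.p14, plus strand, from RefSeq, as are the windows printed below. Each runs from 250 bases before to 50 bases after an annotated gene start, and motifs were searched on both strands. The letters in capitals were found in 0.0342% of the 35116 windows and in those of 0.0667% of the 8990 members that have one. They were found in 1 of the 17 immediate early genes with a window. These shares count that spelling alone and leave out other CArG boxes. A match of letters is a description and does not show that a factor was bound.
EGR1: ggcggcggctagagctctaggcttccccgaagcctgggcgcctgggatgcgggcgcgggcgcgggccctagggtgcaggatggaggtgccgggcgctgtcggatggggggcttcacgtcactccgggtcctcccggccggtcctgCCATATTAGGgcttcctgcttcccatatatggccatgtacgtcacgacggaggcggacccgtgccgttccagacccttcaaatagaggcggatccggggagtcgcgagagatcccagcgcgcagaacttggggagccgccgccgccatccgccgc

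Of the graded falls, CCL2, a chemokine that attracts monocytes, had 21.4, 11, 3.17 and 0.453 FPKM (log2 fold change -4.03, SE 0.277, adjusted p = 2.39e-05). HAPLN1, a link protein of the hyaluronan matrix, had 53.2, 51.1, 13.8 and 2.81 FPKM (-4.13, SE 0.461, adjusted p = 0.00259). CSF1, the growth factor of macrophages, had 36.3, 22.2, 6.79 and 1.86 FPKM (-3.83, SE 0.274, adjusted p = 2.58e-05). The chemokine and the growth factor had each lost part of their level at 1 mM, whereas HAPLN1 at 1 mM was close to its DMSO value. CAV1, the caveolin that shapes caveolae, had 131, 56.5, 21.8 and 10.8 FPKM (-3.47, SE 0.375, adjusted p = 0.000837). TSPAN4, a tetraspanin of the cell surface, had 29.8, 15.4, 8.32 and 2.41 FPKM (-3.15, SE 0.208, adjusted p = 2.39e-05). HAPLN1 did not pass without the 2 mM library (adjusted p = 0.0698) or without the 4 mM library (0.456), while the other 9 graded genes named in these paragraphs passed without any 1 library. With the logarithm of dose EGR1, NGFR and HAPLN1 did not pass (0.0576, 0.0694 and 0.0826).

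The shape "only at 4 mM" was led by heat shock genes. HSPA1B, an inducible HSP70, had 3.07, 3.45, 5.60 and 179 FPKM, and DNAJB1, its HSP40 partner, had 26.0, 25.3, 31.8 and 428 FPKM. In both genes the libraries at 0, 1 and 2 mM lay far below the library at 4 mM, and the 2 mM library was the highest of these 3. Neither gene passed the test of a straight line over dose (adjusted p = 0.116 for HSPA1B and 0.14 for DNAJB1). Without the DMSO library the fitted difference of DNAJB1 was 5.67. In the fit on 8 libraries, where the scatter of both lines is shared, both passed (0.0107 for HSPA1B and 0.0167 for DNAJB1). GADD45B, a stress sensor of the growth arrest family, had 7.21, 10.8, 11 and 79.8 FPKM and rose (log2 fold change 3.28, SE 0.658, adjusted p = 0.0349). BHLHE40, a repressor of the circadian clock, had 6.55, 7.30, 9.96 and 69.9 FPKM (3.34, SE 0.673, adjusted p = 0.0352), and PLK3, a polo-like kinase of the stress response, had 2.73, 2.76, 4.10 and 14.5 FPKM (2.16, SE 0.315, adjusted p = 0.000901). Both rose in the trend test, and at 2 mM BHLHE40 had reached 16.6% and PLK3 22.0% of the difference at 4 mM.

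On the falling side of this shape, AXL, a receptor tyrosine kinase, had 102, 85.8, 68.6 and 15.7 FPKM (log2 fold change -2.68, SE 0.352, adjusted p = 0.00133). ADAMTS1, a secreted metalloprotease, had 9.08, 7.95, 7.78 and 1.12 FPKM (-2.27, SE 0.438, adjusted p = 0.0082). KCNMA1, the large-conductance potassium channel, had 67.7, 61.1, 55.9 and 18.4 FPKM (-1.86, SE 0.302, adjusted p = 0.00225). LRP1, an endocytic receptor, was highest at 1 mM and stood at 11.6, 13.0, 9.83 and 1.76 FPKM (-2.33, SE 0.489, adjusted p = 0.0173). None of the 7 genes of this shape that passed (GADD45B, BHLHE40, PLK3, AXL, ADAMTS1, LRP1 and KCNMA1) still did without the 4 mM library, with adjusted p between 0.0758 for AXL and 0.641 for ADAMTS1. Without the 1 mM library GADD45B and BHLHE40 did not pass either (0.203 and 0.188). Genes were sorted into this shape for little change up to 2 mM, so losing the pass without 4 mM is largely set by the sorting. INO80B-WBP1, a read-through of 2 neighbouring genes, also fell under the naming rule at 5.49, 6.41, 6.91 and 0 FPKM. It shares its exons with INO80B and WBP1, so its reads are uncertain. It passed in the fit on 8 libraries (adjusted p = 0.0312), but not over the 4 libraries (0.176). Its fitted difference was -2.97 without the 2 mM library and -4.15 without DMSO.

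The plot of values by shape shows these genes beside non-monotone ones. Peaks at 1 or 2 mM were led by AC023055.1 (0.450, 22.7, 0.202 and 0.699 FPKM) and by 1 of the 2 annotated TBCE genes (2.70, 2.20, 14.9 and 3.25 FPKM). The other TBCE gene, which overlaps the first on the same strand, ran the other way at 13.1, 15, 4.91 and 30.4 FPKM, so the division of reads between the copies is uncertain. FICD, an ER enzyme that modifies the chaperone BiP, had 3.21, 5.36, 8.84 and 2.72 FPKM. SDF2L1, an ER chaperone cofactor, had 12.2, 25.3, 14.5 and 8.25 FPKM, and THSD4, a protein of the extracellular matrix, had 4.26, 6.67, 11.3 and 5.35 FPKM. Each of these 3 was higher at 1 and 2 mM than in DMSO. FOS, an immediate early subunit of AP-1, swung most among the troughs, at 26.0, 51.1, 7.13 and 137 FPKM. HSPB1, a small heat shock protein, was lowest at 2 mM, with 26.1, 20.7, 9.95 and 25.6 FPKM. The remaining troughs were the read-through genes RPL36A-HNRNPH2 and RNASEK-C17orf49, which share reads with their parts. None of these 10 genes passed the trend test over the 4 libraries, where the adjusted p was 0.394 or higher. These genes were picked for a peak or trough, so leaving out the library that turns them leaves a trend by construction. Scaled to 4 mM, the slope without the 4 mM library was 2.45 for FICD and THSD4 and -2.61 for HSPB1. Without DMSO it was -1.93 for SDF2L1 and 3.0 for RPL36A-HNRNPH2, and without 2 mM 2.24 for FOS and 1.65 for RNASEK-C17orf49.

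**Figure D2:**
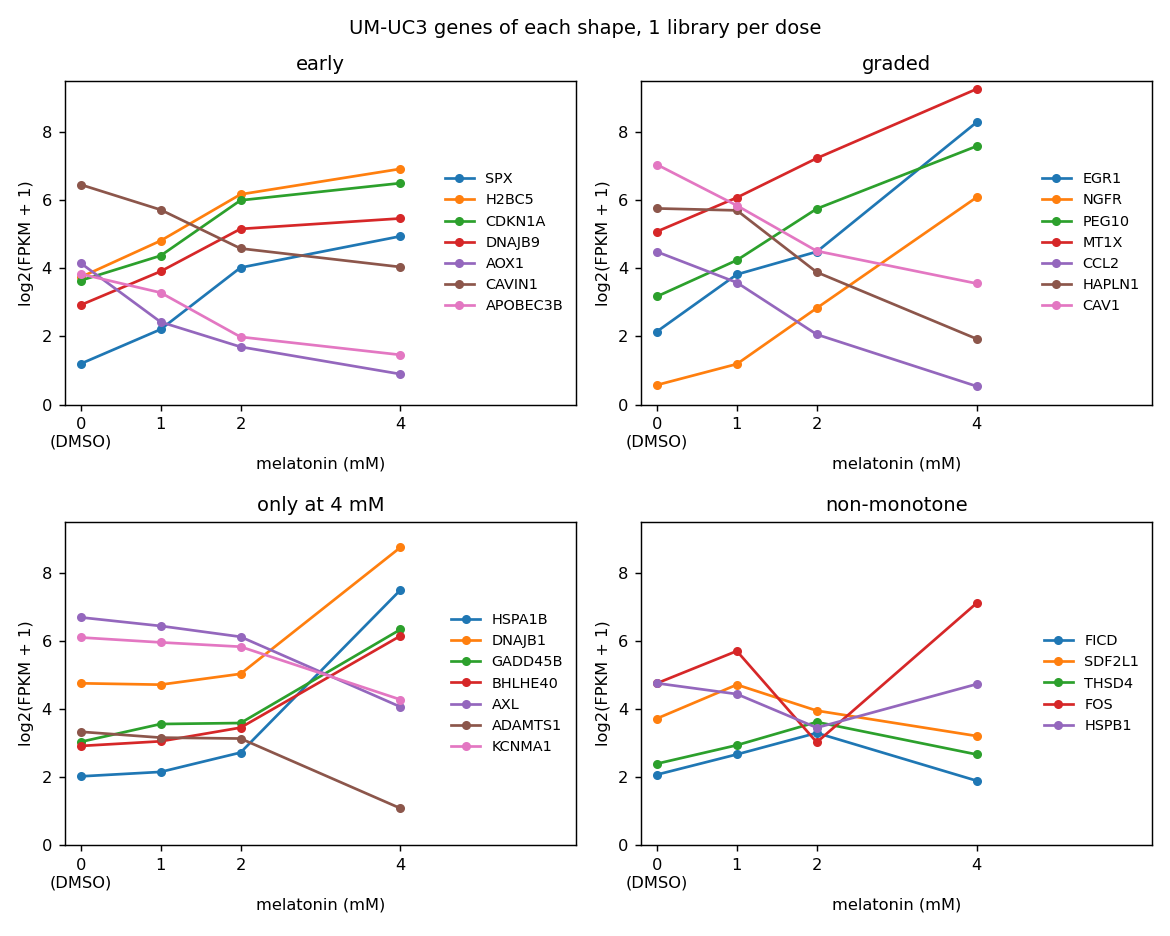
Levels of named UM-UC3 genes as log2(FPKM + 1) (y axis) against the dose of melatonin in mM (x axis), 1 library per dose, in 4 panels by shape. Points are single libraries joined by lines. CDKN1A reaches 62.9 FPKM at 2 mM and 89.6 FPKM at 4 mM, whereas DNAJB1 stays between 25.3 and 31.8 FPKM up to 2 mM and stands at 428 FPKM at 4 mM.

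Gene lists were then read against the shares of all members that rose (14.1%) or fell (19.8%). The list of G2/M and mitosis genes, whose products build the spindle and divide the chromosomes, fell nearly throughout: 50 of 54 measured members fell, 0 rose, and 45 were lower by at least 1 log2 unit at 4 mM than in DMSO. Its median difference from DMSO was -0.18 at 1 mM, -0.83 at 2 mM and -1.40 at 4 mM, against 0.06, 0.00 and -0.04 for all members. Of the 54, 40 were graded, and 43 had a lower value at each higher dose (79.6%), as 17.4% of all members had. AURKB, the kinase of the chromosomal passenger complex, had 28.5, 15.9, 7.38 and 4.12 FPKM (log2 fold change -2.53, SE 0.272, adjusted p = 0.000184). MKI67, the Ki-67 antigen that coats mitotic chromosomes, had 34.7, 27.3, 13.9 and 5.81 FPKM (-2.49, SE 0.215, adjusted p = 4.94e-05). PLK1, the kinase that drives mitotic entry, had 31.2, 22.1, 12.5 and 5.99 FPKM, and ESPL1, the separase that cuts cohesin, had 7.62, 5.90, 3.03 and 1.12 FPKM. Both fell, with adjusted p = 6.13e-05 for PLK1 and 0.000214 for ESPL1. Of the 54, 38 fell without the 4 mM library, and in the fits without any other library 46 to 51 did. Levels per cell and the share of cells in each phase cannot be told apart in these bulk samples, and the same holds for each list below.

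Promoters of these genes carry a pair of short motifs, the cell cycle homology region TTTGAA and the CCAAT box. TTTGAA was found in the windows of 34 of the 47 list members that have one (72.3%), against 13.2% of the 8990 members with a window and 15.2% of the 35116 windows. CCAAT was found in 39 of 47 (83.0%), against 44.1% of members and 34.6% of windows. The windows of PLK1 (chr16:23678639-23678938, plus strand) and MKI67 (chr10:128126374-128126673, minus strand) are shown because 50 of the 54 list members fell, with both motifs in capitals. CCAAT reads ATTGG where it lies on the other strand. In MKI67 the TTTGAA that begins 29 bases before the annotated start overlaps an ATTGG that begins 24 bases before it.
PLK1: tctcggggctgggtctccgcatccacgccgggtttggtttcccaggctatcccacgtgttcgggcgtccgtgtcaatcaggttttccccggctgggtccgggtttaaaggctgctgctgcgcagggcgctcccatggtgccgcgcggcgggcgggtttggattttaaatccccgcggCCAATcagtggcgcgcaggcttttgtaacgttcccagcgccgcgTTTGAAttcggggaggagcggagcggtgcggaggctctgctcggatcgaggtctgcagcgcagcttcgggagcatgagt
MKI67: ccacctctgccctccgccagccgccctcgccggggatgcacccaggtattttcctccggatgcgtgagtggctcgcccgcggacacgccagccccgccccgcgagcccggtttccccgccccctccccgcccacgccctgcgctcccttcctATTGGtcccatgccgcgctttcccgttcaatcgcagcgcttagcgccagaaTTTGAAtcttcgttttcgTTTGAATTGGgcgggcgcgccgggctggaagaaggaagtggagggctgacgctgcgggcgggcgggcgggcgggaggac

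The genes of G1/S and DNA replication moved the same way with a smaller median. Of 46 measured, 27 fell and 1 rose, and the medians were -0.06, -0.57 and -0.84 at 1, 2 and 4 mM. The count that fell was 13 without the 4 mM library and 18 without DMSO. MCM5, a subunit of the replicative helicase, had 16.5, 8.89, 4.42 and 2.78 FPKM (log2 fold change -2.19, SE 0.291, adjusted p = 0.000534), and MCM2, another subunit, had 24.8, 15.6, 8.92 and 6.33 FPKM. TYMS, the thymidylate synthase, had 29.6, 24.5, 13.8 and 7.49 FPKM, and CDC45, which loads with the helicase, had 6.78, 6.60, 3.24 and 1.21 FPKM. All 4 fell. The exception that rose was PCNA, the sliding clamp, at 20, 17.8, 21.7 and 32.3 FPKM (0.75, adjusted p = 0.0221), which was named after its value was seen and did not pass without the 4 mM library (0.8) or the 1 mM library (0.0562). CDK4, the kinase of early G1, fell, with 117, 110.0, 65.4 and 43.6 FPKM (-1.51, SE 0.224, adjusted p = 0.000749). Among p53 targets, 8 of 23 rose and 2 fell, with medians of 0.12, 0.35 and 0.62, and 5 rose without the DMSO library. Beside CDKN1A, GADD45A, a stress sensor of the growth arrest family, rose at 36.7, 49.9, 75.4 and 174 FPKM (2.25, SE 0.199, adjusted p = 5.04e-05), and so did TNFRSF10B, the death receptor DR5, at 56.9, 75.6, 151 and 234 FPKM (2.1, SE 0.25, adjusted p = 0.000262). The members that fell were GDF15, a stress cytokine, and FAS, a death receptor named after its value was seen that did not pass without the 4 mM or the DMSO library (0.126 and 0.104).

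**Figure D3:**
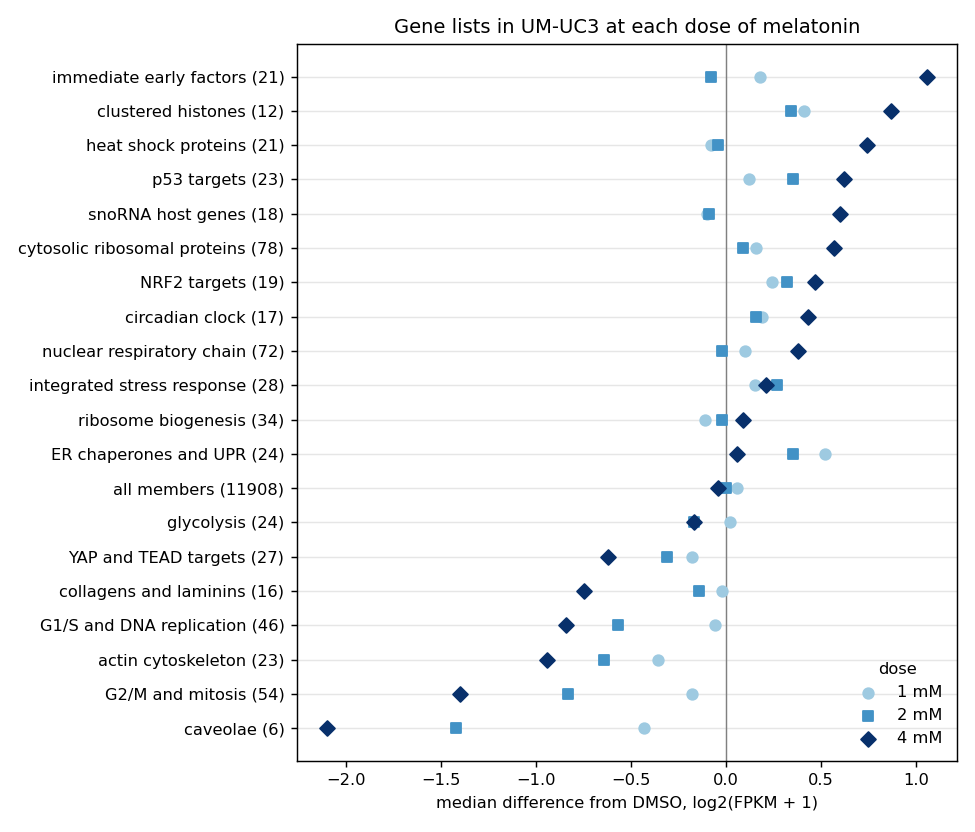
Median difference from DMSO on the log2(FPKM + 1) scale (x axis) of UM-UC3 gene lists (y axis, number of measured genes in brackets) at 1 mM (circle), 2 mM (square) and 4 mM (diamond). The mitosis list moves left at each dose to -1.40 and the caveola list to -2.1, heat shock proteins leave 0 at 4 mM, and the ER list is highest at 1 mM.

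Stress lists differed in the dose at which they moved. The 21 measured heat shock proteins had medians of -0.08 at 1 mM, -0.04 at 2 mM and 0.74 at 4 mM, and 16 of them were highest at 4 mM (76.2%), as 33.6% of all members were. In the trend test 6 rose and 0 fell, and 8 were higher by at least 1 log2 unit at 4 mM. The count that rose was 0 without the 4 mM library, 4 without 1 mM, 10 without 2 mM and 9 without DMSO. It was 1 with the logarithm of dose and 12 in the fit on 8 libraries. HSP90AA1, the inducible HSP90, had 216, 186, 173 and 802 FPKM, and HSPA1A, a near-identical copy of HSPA1B with which it shares reads, had 0.829, 0.519, 1.01 and 50.8 FPKM. In both genes the 4 mM library stood alone, and neither passed the trend test (adjusted p = 0.15 and 0.161). The fitted difference of HSP90AA1 was 2.1 without the 2 mM library and 3.03 without DMSO. In the fit on 8 libraries both passed (0.0189 for HSP90AA1 and 0.0167 for HSPA1A). HSP90AA1 is shown because 1 of its 2 windows, which belong to different annotated starts, holds a heat shock element, in capitals. The element was searched as GAA, TTC and GAA with any pair of bases between neighbouring parts, and it is read here on the other strand, as TTC, GAA and TTC. The element was found in 6 of 19 list members with a window (31.6%), in 0.467% of members and in 0.49% of windows, and not in the window of HSPA1B or DNAJB1. This window of HSP90AA1 is chr14:102086995-102087294, minus strand, and the element starts 88 bases before the annotated start. The other window, chr14:102139700-102139999, lies next to the start of the gene's annotated span in the deposited table and holds no match.
HSP90AA1: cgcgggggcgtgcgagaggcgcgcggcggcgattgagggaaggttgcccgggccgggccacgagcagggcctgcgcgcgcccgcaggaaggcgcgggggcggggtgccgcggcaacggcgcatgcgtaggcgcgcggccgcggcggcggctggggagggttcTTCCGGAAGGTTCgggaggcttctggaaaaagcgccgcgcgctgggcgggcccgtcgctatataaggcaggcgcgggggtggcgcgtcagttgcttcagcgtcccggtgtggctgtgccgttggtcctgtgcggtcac

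ER chaperones and genes of the unfolded protein response had the opposite order over dose. Each of the 24 measured members was higher at 1 mM than in DMSO, and the list's medians were 0.52 at 1 mM, 0.35 at 2 mM and 0.06 at 4 mM. The highest library was 1 mM for 13 members and 2 mM for 8, where 26.2% of all members were highest at 1 mM and 13.8% at 2 mM. The list summed to 4350, 5970, 4890 and 3750 FPKM. HSPA5, the chaperone BiP, had 640.5, 1227, 1303 and 915 FPKM, and CALR, a calcium-binding ER chaperone, had 1027, 1320, 743 and 532 FPKM. Of the 24, 4 rose over dose (DNAJB9, HERPUD1, ERN1 and EDEM1) and CALR fell (log2 fold change -1.15, SE 0.312, adjusted p = 0.0167). HERPUD1, a factor of ER-associated degradation, had 56.4, 59.0, 95.8 and 128 FPKM (1.26, SE 0.225, adjusted p = 0.00197), and ERN1, the sensor IRE1, had 4.46, 6.97, 12.6 and 11.5 FPKM (1.19, SE 0.335, adjusted p = 0.0247). HSPA5 and EDEM1 were named after their values were seen. Without the 4 mM library 7 of the list rose, HSPA5 among them (adjusted p = 0.0267), and without the DMSO library 7 fell and 1 rose. CALR did not pass without the 4 mM library (0.411) or without the 1 mM library (0.0544), and ERN1 did not without the DMSO library (0.221) or without the 1 mM library (0.0547). EDEM1 did not pass without the 4 mM or the DMSO library (0.0611 and 0.176).

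The windows of HSPA5 (chr9:125241294-125241593, minus strand) and FICD (chr12:108515027-108515326, plus strand) are shown because both genes were highest at 2 mM and both hold the ER stress response element, in capitals, which was searched as CCAAT and CCACG with 9 bases of any kind between them. It starts 66 bases before the annotated start of HSPA5 and 154 bases before that of FICD. The element was chosen after the values were seen, and was found in 7 of 23 list members with a window (30.4%), in 0.178% of members and in 0.0769% of windows. FICD was not on the list. The element holds a CCAAT box within it.
HSPA5: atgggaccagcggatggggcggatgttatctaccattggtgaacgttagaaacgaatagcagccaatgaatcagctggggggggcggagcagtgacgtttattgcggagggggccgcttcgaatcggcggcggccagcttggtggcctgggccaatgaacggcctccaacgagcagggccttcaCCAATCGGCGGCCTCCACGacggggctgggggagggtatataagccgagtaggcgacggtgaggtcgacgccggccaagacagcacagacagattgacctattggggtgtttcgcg
FICD: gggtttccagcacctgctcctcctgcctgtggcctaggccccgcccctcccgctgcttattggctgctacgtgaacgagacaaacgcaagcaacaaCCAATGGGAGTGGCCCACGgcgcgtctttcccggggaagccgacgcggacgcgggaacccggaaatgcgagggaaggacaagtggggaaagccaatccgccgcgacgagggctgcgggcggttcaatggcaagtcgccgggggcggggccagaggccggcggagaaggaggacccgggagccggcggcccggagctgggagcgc

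**Figure D4:**
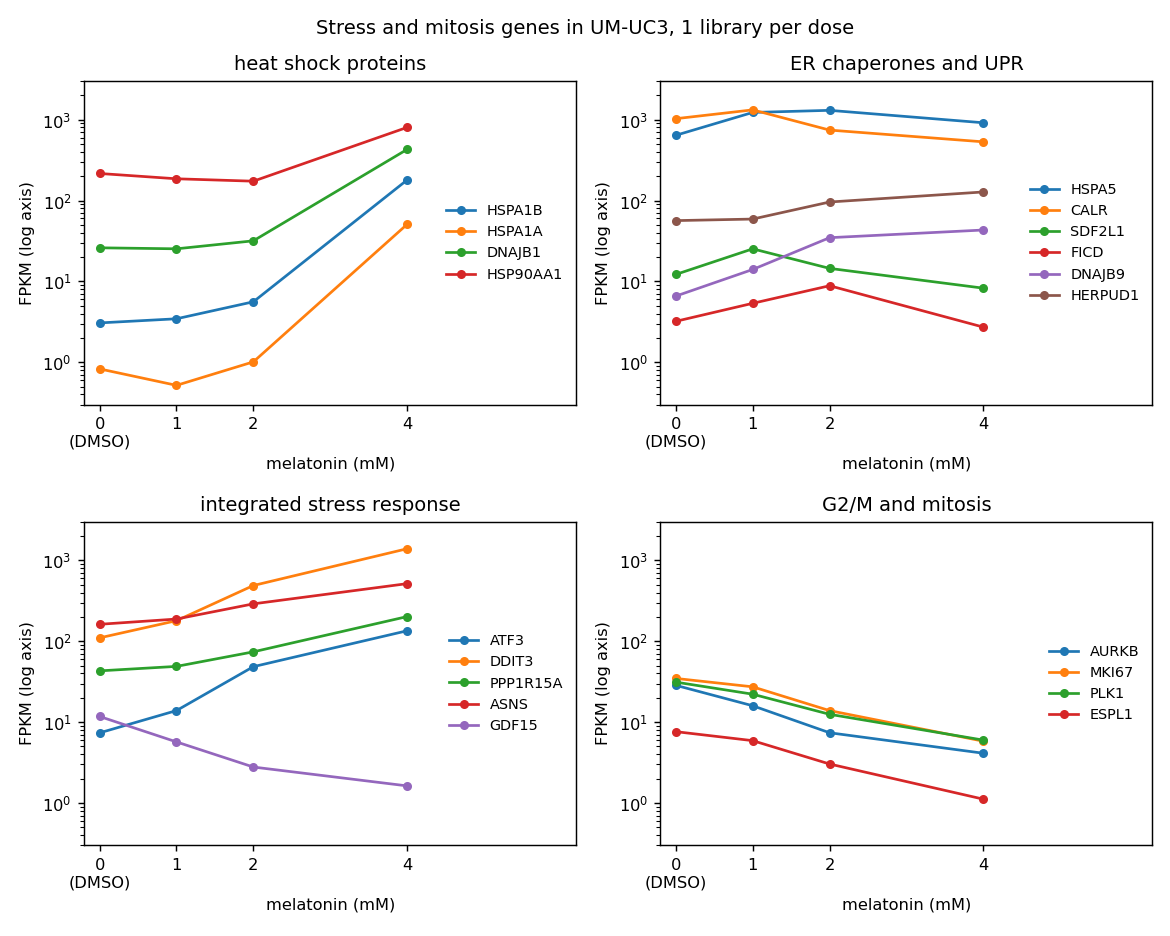
FPKM on a log axis (y axis) against the dose of melatonin in mM (x axis) for UM-UC3 genes of 3 stress programmes and of mitosis, 1 library per dose, joined by lines. HSPA5 is highest at 2 mM (1303 FPKM), the heat shock genes stand far higher at 4 mM than at any lower dose, DDIT3 climbs to 1391 FPKM, and the 4 mitosis genes descend at each dose.

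Of 28 measured members of the integrated stress response 9 rose (32.1%) and 6 fell (21.4%, near the 19.8% of all members), with medians of 0.15, 0.27 and 0.21, while the summed level of the list was 1980, 2390, 2950 and 4970 FPKM. The regulators ATF4, ATF3, DDIT3 and PPP1R15A were among those that rose. DDIT3, the transcription factor CHOP, had 110.0, 179, 488 and 1391 FPKM (log2 fold change 3.76, SE 0.265, adjusted p = 2.39e-05). PPP1R15A, the phosphatase subunit that restores translation, had 43.0, 48.8, 73.9 and 202 FPKM (2.29, SE 0.240, adjusted p = 0.000134). ASNS, the asparagine synthetase, had 162, 188, 289.7 and 515 FPKM (1.73, SE 0.227, adjusted p = 0.000397). GDF15 went against them and fell at 11.7, 5.69, 2.78 and 1.63 FPKM (-2.22, SE 0.310, adjusted p = 0.000676), and PSPH, CBS and STC2, named with ASNS and ATF4 after their values were seen, fell too (adjusted p = 0.00312, 0.00226 and 0.0352). PSPH makes serine and CBS makes cystathionine, and STC2 is a secreted glycoprotein. Of the 28, without the 4 mM library, 6 rose and 2 fell, and ATF4, PSPH, CBS and STC2 did not pass (adjusted p = 0.145, 0.144, 0.161 and 0.684), nor did STC2 without DMSO (0.155). In the fit on 8 libraries ASNS and STC2 did not pass (0.0768 and 0.0766).

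Among immediate early factors 9 of 21 rose and 2 fell, and the medians were 0.18 at 1 mM, -0.08 at 2 mM and 1.06 at 4 mM. The count that rose was 5 without the 4 mM library and 4 with the logarithm of dose, where EGR1 and IER2 did not pass (adjusted p = 0.0576 and 0.121). IER2, a nuclear immediate early protein, had 21.3, 24.7, 47.4 and 343 FPKM (log2 fold change 4.12, SE 0.556, adjusted p = 0.00877). NR4A1, an orphan nuclear receptor, had 1.01, 1.34, 3.52 and 10.4 FPKM (2.63, SE 0.273, adjusted p = 0.000132). The feedback regulators of MAP kinases DUSP1, a dual-specificity phosphatase, DUSP6, a phosphatase of ERK, and SPRY2, an inhibitor of receptor signalling, rose beside them. DUSP1 had 27.6, 33.1, 66.7 and 237 FPKM (3.20, SE 0.256, adjusted p = 4.46e-05), and DUSP6 had 23.2, 37.9, 64.2 and 124 FPKM (2.36, SE 0.207, adjusted p = 4.94e-05). SPRY2 had 10.3, 13.8, 21.1 and 51.2 FPKM (2.25, SE 0.199, adjusted p = 5.04e-05). Of the 16 feedback genes measured 6 rose and 4 fell, against 4 and 0 without the 4 mM library, and 2 fell without DMSO. The factors that fell among the 21 were SRF, the serum response factor, and KLF2, a zinc finger factor, both named after their values were seen, at adjusted p = 0.00905 and 0.0194. Neither passed without the 4 mM library (0.141 and 0.18) or without DMSO (0.0537 and 0.0732).

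Most genes of caveolae, the actin cytoskeleton and the matrix fell over the 4 libraries. The counts for actin and matrix genes depended on single libraries, as did those of all members. In the caveola list 5 of 6 fell, namely CAV1, CAV2, CAVIN1, CAVIN3 and EHD2, and the median was -0.43, -1.42 and -2.1 at 1, 2 and 4 mM. CAVIN3 had 19, 13.0, 5.17 and 2.34 FPKM (log2 fold change -2.67, SE 0.264, adjusted p = 0.00011), and CAV2 had 32.1, 25, 14.0 and 8.64 FPKM (-1.84, SE 0.216, adjusted p = 0.000224). All 5 also fell without any 1 library. Of 23 genes of the actin cytoskeleton 15 fell and 0 rose, with medians of -0.36, -0.64 and -0.94, and without the DMSO library 5 fell. TPM1, a tropomyosin, had 380, 226, 220.1 and 144 FPKM (-1.27, SE 0.249, adjusted p = 0.0033) and did not pass without DMSO (0.0825). Of 16 collagens and laminins 10 fell and 0 rose. COL3A1, a fibrillar collagen, had 7.64, 7.31, 1.32 and 0.099 FPKM (-3.26, SE 0.430, adjusted p = 0.00119), and LAMB3, a laminin chain of basement membranes, had 11.2, 4.83, 3.48 and 1.39 FPKM (-2.22, SE 0.275, adjusted p = 0.000293). Of the 16, 1 fell without the 4 mM library, and COL3A1 did not pass (0.222). Of 16 genes tied to epithelial-mesenchymal transition 9 fell and 1 rose, PLAUR, the urokinase receptor, named after its value was seen, which did not pass without the 4 mM library (0.822). In that fit 4 of the 16 fell. PLAU, the urokinase itself, had 226, 170.3, 89.2 and 26.8 FPKM (-3.13, SE 0.229, adjusted p = 2.58e-05), and ZEB2, a repressor of epithelial genes, had 9.70, 8.72, 5.85 and 2.18 FPKM (-1.83, SE 0.241, adjusted p = 0.000412) and did not pass without the 4 mM library (0.0869). VIM stayed between 1140 and 1211 FPKM and did not pass (adjusted p = 0.822). Of 9 measured integrins 3 fell (ITGA3, ITGA6 and ITGB2, named after their values were seen) and 1 rose. Without the 4 mM library ITGA3 and ITGA6 did not pass (0.499 and 0.547), nor did ITGA3 without 1 mM (0.0568), nor ITGA3 and ITGB2 without DMSO (0.0782 and 0.0656). The one that rose was ITGA2, a collagen receptor subunit, with 2.52, 3.25, 8.34 and 18.1 FPKM (2.58, SE 0.260, adjusted p = 0.00011).

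Ribosomal protein genes were mostly highest at 4 mM, although 45 of 78 did not pass the test. Of 78 cytosolic ribosomal protein genes 33 rose and 0 fell, 74 were highest at 4 mM (94.9%, against 33.6% of all members), and the medians were 0.16, 0.09 and 0.57. With the 4 mM library left out 0 of them rose, and 15 did without DMSO or with the logarithm of dose. RPS12 had 479, 526, 735 and 1384 FPKM (log2 fold change 1.60, SE 0.249, adjusted p = 0.000941), and RPLP1 had 284, 373, 393 and 828 FPKM (1.5, SE 0.248, adjusted p = 0.00128). Many of these genes have processed pseudogenes, and the way in which the authors' counting divided such reads is not stated. Of 34 genes of ribosome biogenesis 11 rose and 0 fell, against 0 that rose without the 4 mM library, 6 without 1 mM and 2 with the logarithm of dose. MYC, which drives this programme, had 101, 91.0, 107 and 230.2 FPKM (1.27, SE 0.283, adjusted p = 0.00723), and UTP15, a factor of the small subunit, had 6.83, 6.73, 8.78 and 16.9 FPKM (1.27, SE 0.236, adjusted p = 0.00249). None of these 4 genes passed without the 4 mM library, with adjusted p = 0.109 for RPS12, 0.202 for RPLP1, 0.869 for MYC and 0.425 for UTP15. Of 72 nuclear genes of the respiratory chain 22 rose and 7 fell, with medians of 0.10, -0.02 and 0.38. In the fit without 4 mM 2 rose and 0 fell, without 1 mM or DMSO 2 fell, and with the logarithm of dose 12 rose and 1 fell. NDUFA2, a subunit of complex I, had 8.81, 13.4, 14.9 and 40.4 FPKM (2.03, SE 0.228, adjusted p = 0.000184), while NDUFS7, another, fell at 32.9, 30.3, 29.5 and 13.1 FPKM (-1.28, SE 0.248, adjusted p = 0.00336) and did not pass without the 4 mM library (0.689). Of the 13 mitochondrial mRNAs MT-CO1, MT-CO2 and MT-ND4 rose and 0 fell, and without the 1 mM, the 4 mM or the DMSO library or with the logarithm of dose 0 rose. Without the 2 mM library 3 rose and 3 fell.

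Among genes of metal handling, MT2A, the main metallothionein, had 558, 887, 1166 and 2155 FPKM (log2 fold change 1.90, SE 0.251, adjusted p = 0.000418). HMOX1, the haem oxygenase induced by oxidants, had 31.2, 48.1, 65.8 and 104 FPKM (1.67, SE 0.206, adjusted p = 0.000275). The list of metallothioneins and iron genes had 4 of 12 that rose, with SLC30A1, a zinc exporter, as the fourth, and 2 that fell, SLC39A10, a zinc importer, and SLC11A2, an iron importer. SLC30A1 and SLC11A2 were named after their values were seen. Without the 4 mM library SLC30A1, SLC39A10 and SLC11A2 did not pass (adjusted p = 0.0511, 0.844 and 0.764), nor did SLC30A1 and SLC11A2 without DMSO (0.113 and 0.0659). PER1, a core repressor of the clock, had 2.63, 4.76, 8.45 and 32.2 FPKM (3.21, SE 0.221, adjusted p = 2.39e-05), and NFIL3, a clock-controlled repressor, had 10.1, 17.8, 30.5 and 57.0 FPKM (2.37, SE 0.215, adjusted p = 6.13e-05). Of 17 clock genes 6 rose and 1 fell. Leaving out 4 mM, 2 rose and 0 fell, without 1 mM 4 rose, and with the logarithm of dose 3 did. Among proteins that bind or convert melatonin, NQO2, a quinone reductase also called the MT3 binding site, had 12.6, 16.3, 25 and 30.2 FPKM (1.22, SE 0.220, adjusted p = 0.0021).

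Of 24 members of the glycolysis list 8 fell (33.3%) and 4 rose (16.7%, near the 14.1% of all members), and the median was 0.02, -0.17 and -0.17. PGAM1, a phosphoglycerate mutase, had 71.9, 72.1, 43.8 and 22.4 FPKM (log2 fold change -1.77, SE 0.231, adjusted p = 0.000397), and ENO1, an enolase, had 684, 644, 562 and 361 FPKM (-0.95, SE 0.238, adjusted p = 0.0111). HK2, a hexokinase, had 32.7, 33.0, 54.6 and 114 FPKM (1.90, SE 0.234, adjusted p = 0.000293), and SLC2A3, the glucose transporter GLUT3, had 2.79, 2.91, 3.94 and 9.27 FPKM (1.51, SE 0.261, adjusted p = 0.0017). The other members that rose were BPGM, a bisphosphoglycerate mutase, and ENO2, an enolase named after its value was seen (adjusted p = 0.59 without the 4 mM library, 0.0712 without the 1 mM library and 0.381 in the fit on 8 libraries). Without the 4 mM library 0 of the 24 fell and 1 rose, and PGAM1, ENO1 and SLC2A3 did not pass (adjusted p = 0.0562, 0.497 and 0.397), nor did BPGM (0.0742). The count that fell was 3 without 1 mM, 2 without DMSO and 3 with the logarithm of dose. Without the 1 mM library ENO1 was at 0.0543 and without the DMSO library at 0.068.

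Genes of cell death, a list that holds killer proteins and survival proteins, lay on both sides. Of 27 measured 6 rose and 9 fell, and the medians were -0.05, -0.09 and 0.05 at 1, 2 and 4 mM. Beside TNFRSF10B, BCL2L11, which encodes the killer protein Bim, had 2.95, 3.95, 3.98 and 6.19 FPKM and rose (log2 fold change 0.81, SE 0.235, adjusted p = 0.0212). So did the survival genes MCL1, a relative of BCL2, at 56.8, 53.8, 56.0 and 103 FPKM (0.89, adjusted p = 0.018) and BIRC3, an inhibitor of apoptosis, at 12.1, 11.7, 12.6 and 23.9 FPKM (0.97, adjusted p = 0.0109). In both, the 4 mM library stood apart from the others. On the falling side, BCL2, the survival protein, had 3.29, 2.97, 2.39 and 1.57 FPKM (-0.76, SE 0.249, adjusted p = 0.0356). The killer genes BID, BAD, BOK and HRK fell with it. BID had 10.3, 9.05, 5.12 and 3.45 FPKM (-1.42, adjusted p = 0.00141), and BAD had 13.5, 15.9, 8.73 and 5.91 FPKM (-1.24, adjusted p = 0.00541). BOK had 6.24, 5, 3.51 and 1.84 FPKM (-1.37, adjusted p = 0.00149), and HRK had 5.33, 3.74, 3 and 1.15 FPKM (-1.54, adjusted p = 0.00105). CASP8, the initiator caspase of death receptors, fell at 18.3, 18.5, 14.0 and 11.9 FPKM (-0.65, adjusted p = 0.0301), and BCL2L2, CFLAR and FAS were the others. The genes of this list other than TNFRSF10B, HRK, BCL2L11 and BCL2 were named after their values were seen.

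The counts of the same list moved with single libraries, as did those of all members given with the trend test above. Of the 27, 3 rose and 1 fell without the 4 mM library, without DMSO 4 fell, and without 1 mM 6 fell. With the logarithm of dose 3 rose and 3 fell. In the fit without 4 mM, the adjusted p was 0.461 for BCL2L11, 0.465 for BCL2, 0.923 for BIRC3, 0.969 for MCL1 (where the fitted difference was -0.04), 0.224 for BAD, 0.0873 for BOK, 0.107 for HRK and 0.287 for CASP8. BID still passed. BCL2L11 and BCL2 did not pass without DMSO (0.0991 and 0.0987), nor BCL2 without 1 mM (0.0757), nor CASP8 without either (0.0721 and 0.0857).

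Of 13 measured genes that the study names in its account, 2 rose (CDKN1A and BCL2L11) and 6 fell (CDK4, ENO1, BCL2, H2AX, CDH2 and AKT1). Since the study names them from its own work on these cells, their directions are no independent evidence. The study measured several of them as protein or phosphorylated protein on western blots, H2AX and AKT1 among them, while the values here are RNA. Phosphorylated H2AX rose there. H2AX, a histone that is phosphorylated at DNA breaks, had 37.2, 38.2, 19.8 and 14.1 FPKM (log2 fold change -1.49, SE 0.25, adjusted p = 0.00161). CDH2, the cadherin of mesenchymal cells, had 14.4, 13.4, 10.6 and 6.51 FPKM (-1.08, SE 0.208, adjusted p = 0.00298). AKT1, a kinase of growth signalling, had 28.4, 25.5, 22.0 and 16.0 FPKM (-0.81, SE 0.190, adjusted p = 0.00815). None of these 3 passed without the 4 mM library (0.0555 for H2AX, 0.229 for CDH2 and 0.265 for AKT1). In that fit 1 of the 13 rose and 1 fell, and without DMSO 0 rose and 4 fell. The others did not pass over the 4 libraries. SIRT1, a deacetylase, had 22.2, 27.1, 30.2 and 31.9 FPKM (adjusted p = 0.091), and PPARG, a nuclear receptor, had 7.88, 7.71, 10.1 and 5.33 FPKM (0.241). SNAI1, a repressor of epithelial genes, had 1.02, 1.46, 1.03 and 1.65 FPKM (0.457). CAMKK2, a kinase upstream of AMPK, had 9.99, 10.4, 8.73 and 8.29 FPKM (0.313), and HIF1A, the hypoxia factor, had 35.8, 39.2, 38.6 and 31.8 FPKM (0.456).

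Position in the genome was compared with shape as a description. The span of a gene here is its annotated start to end. Among protein-coding members under 5 kb 21% rose, and among those over 100 kb 10.6% rose, while 14.9 and 20.2% fell. The genes of shape "only at 4 mM" that were higher at 4 mM had a median span of 10.2 kb, early genes that were higher had 49.2 kb, and all members 32.8 kb. The median difference of 4 mM from DMSO was 0.19 for the 772 shortest genes and -0.08 for the 2156 longest. Whether span itself goes with these differences, apart from the gene classes that are short, was not tested.

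UM-UC3 was then set against 5637 by the difference of the slopes over dose, fitted on 8 libraries. The 11908 genes were kept on their UM-UC3 mean alone, and 10778 of them also had a mean of at least 1 FPKM in 5637. Among the 11908 the slope was higher in UM-UC3 for 1103 (9.26%) and lower for 1859 (15.6%). Without the UM-UC3 library at 4 mM these counts were 31 and 84, and without the 5637 library at 4 mM 155 and 434. Picked for more than 50 FPKM in each UM-UC3 library and under 0.5 in 5637 at DMSO were 5 genes (IL13RA2, VGF, CD68, TMPRSS15 and LINC00958). In the 5637 library at 4 mM they had 1.68 to 4.85 FPKM, against at most 1.09 FPKM in 5637 at 1 and 2 mM. The part of this in the differences was not tested. Mitosis genes fell more steeply in UM-UC3, where 24 of 54 had a lower slope and 0 a higher one, and their median difference of 4 mM from DMSO was -1.40 in UM-UC3 and -0.37 in 5637. Ribosome biogenesis went the other way, with 25 of 34 slopes higher in UM-UC3 and medians of 0.09 in UM-UC3 and -1.09 in 5637. Ribosomal proteins had 29 of 78 higher slopes and 0 lower, with medians of 0.57 and -0.27 in the same order. In the integrated stress response 18 of 28 slopes were lower and 0 higher, with medians of 0.21 in UM-UC3 and 1.84 in 5637. Heat shock proteins had 8 of 21 higher and 1 lower slope, and ER genes 8 of 24 lower and 0 higher.

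Single genes show the size of these differences. ASNS had 162, 188, 289.7 and 515 FPKM in UM-UC3 against 5.09, 26.0, 166 and 596 FPKM in 5637 (difference of log2 slopes -4.88, SE 0.9, adjusted p = 0.0105). The lines differed most at DMSO and least at 4 mM. MYC had 101, 91.0, 107 and 230.2 FPKM in UM-UC3 against 69.0, 40.9, 36.1 and 34.4 FPKM in 5637 (2.13, SE 0.456, adjusted p = 0.00939). CAVIN1 had 86.9, 51.7, 23.0 and 15.5 FPKM in UM-UC3 against 77.3, 94.0, 103 and 126 FPKM in 5637 (-3.12, SE 0.402, adjusted p = 0.00143). At 4 mM MYC was above its DMSO level in UM-UC3 and below it in 5637, and CAVIN1 was below in UM-UC3 and above in 5637. MT1X had 615 FPKM at 4 mM in UM-UC3 and 53.6 FPKM in 5637 (3.48, SE 0.294, adjusted p = 0.000366). PEG10, with 8.03 to 191 FPKM in UM-UC3 and 82.7 to 1389 FPKM in 5637, differed in slope by 0.50 (SE 0.377, adjusted p = 0.348), and CAV1 by 0.15 (SE 0.589, adjusted p = 0.871), neither past the threshold.

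**Figure D5:**
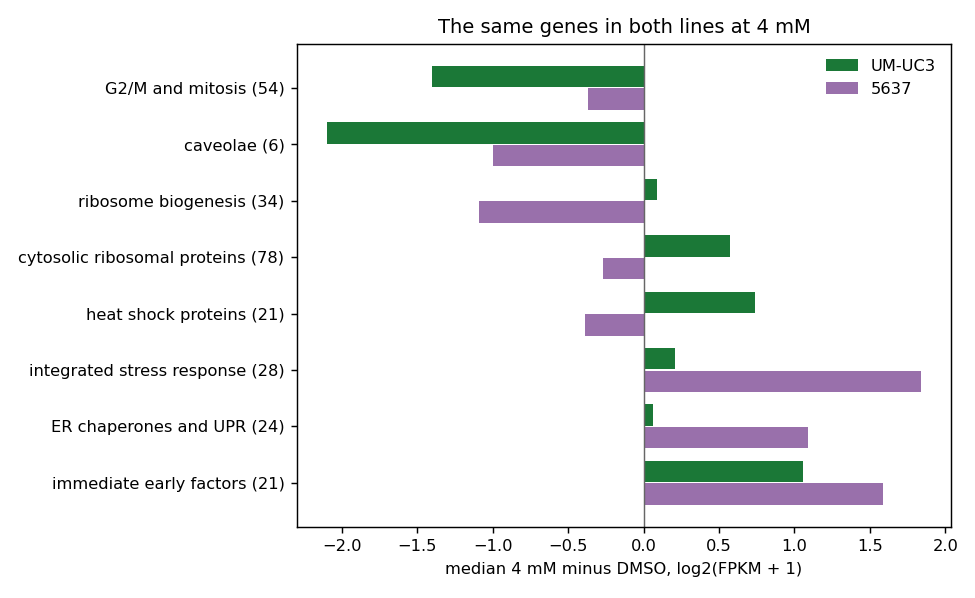
Median difference of 4 mM from DMSO on the log2(FPKM + 1) scale (x axis) for 8 lists (y axis, number of genes in brackets), UM-UC3 in green above 5637 in purple. Mitosis genes stand at -1.40 in UM-UC3 and -0.37 in 5637, and ribosome biogenesis genes at 0.09 in UM-UC3 and -1.09 in 5637.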

How the data were processed

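Poly(A) RNA was sequenced from UM-UC3 and 5637 cells at 4 doses of melatonin, as directional libraries with paired reads of 150 bases. Per the study's methods, reads were trimmed with Cutadapt 1.18 and Trimmomatic 0.35 (reads under 35 bases removed) and aligned with HISAT2 2.1.0, and StringTie, edgeR, FastQC and CASAVA 1.8 appear in the submitters' processing notes. No release of the gene annotation is named, and the RNA kit differs between labels and methods. The deposited table does not name its unit, and its values were taken as FPKM from the authors' use of StringTie. FPKM is a share of each library, so a few abundant transcripts lower the values of all others, and no read counts can be had from it. A second sheet that repeats part of these rows and a sheet of the authors' correlations were not used.

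Genes with a mean of at least 1 FPKM over the 4 UM-UC3 libraries were kept. On log2(FPKM + 1), a slope over dose was fitted with limma 3.58.1 in R 4.3.3 (moderated variances with a trend on level and robust estimation, 2 residual degrees of freedom), scaled to the full range of 4 mM, with Benjamini-Hochberg adjustment over 11908 genes at 0.05. The difference of slopes used 8 libraries and a level and slope for each line (4 residual degrees of freedom). Tested on simulated data of 11908 genes with 200 changed, the trend recovered 62.5% of genes changed by 1 log2 unit, with 12.6% of its calls false, and 99.0% of those changed by 2, with 8.76% false. The difference of slopes recovered 1.0% of changes of 1 and 94.0% of changes of 2, with 50.0% of its few calls false at 1 and 8.29% at 2. With 1 library per dose, p-values reflect scatter around a line over dose and no replicate error. Summaries used Python 3.11.15, pandas 2.3.3 and numpy 2.4.6.

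Genes named were the 5 largest rises and the 5 largest falls of each shape and the 5 largest peaks and the 5 largest troughs, among protein-coding genes with a mean of at least 4 FPKM. Without that limit, they were also the genes the study names and up to 4 members with the largest difference of each list described. Others are marked in the text, and genes of the markers and of the checks of line identity were taken from their lists. The members and lists were chosen with earlier results of these data known. Alternatives were another pseudocount, other filters, rescaled libraries, the logarithm of dose, other limits for shapes, a fit on 8 libraries and leaving out each library. Of the member genes, 8990 had a RefSeq promoter window.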

Additional observations from a re-analysis of the deposited data

Results flagged for a closer look

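By limma at an adjusted p under 0.05, the slope over dose was higher in UM-UC3 than in 5637 for 1103 genes (9.26%). It was lower for 1859 (15.6%). Many of the 126 genes named and tested were picked for a large UM-UC3 difference from DMSO, which enters this test. The number of them that passed is therefore no independent result. Of these 126 genes 49 passed. The difference of the slopes, UM-UC3 minus 5637 in log2 units over the full dose range, was positive for 17 of them: BHLHE40 (4.14), EGR1 (4.00), MT1X (3.48), SPX (3.42), ITGA2 (2.73), IER2 (2.70), DNER (2.51), MT2A (2.47), NR4A1 (2.33), MYC (2.13), UTP15 (2.08), PER1 (2.03), PPARG (1.74), PLK3 (1.53), SLC2A3 (1.3), SPRY2 (1.28) and HIF1A (0.93).

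It was negative for 32 of them: HAPLN1 (-5.52), INO80B-WBP1 (-5.49), ASNS (-4.88), GDF15 (-4.38), CCL2 (-4.35), TUBA1A (-3.99), COL3A1 (-3.68), STC2 (-3.63), CAVIN1 (-3.12), KCNMA1 (-2.83), AOX1 (-2.83), CSF1 (-2.69), CAVIN3 (-2.56), PSPH (-2.54), CBS (-2.44), HRK (-2.34), PPP1R15A (-2.26), AURKB (-2.17), LAMB3 (-2.16), HERPUD1 (-2.11), ZEB2 (-1.84), ERN1 (-1.80), APOBEC3B (-1.57), KLF2 (-1.50), MKI67 (-1.50), SNAI1 (-1.47), SRF (-1.39), TSPAN4 (-1.36), BCL2L11 (-1.28), H2AX (-1.19), SIRT1 (-0.93) and BOK (-0.93). INO80B-WBP1 is the read-through gene whose reads are uncertain. Genes were kept on their UM-UC3 mean alone. CCL2, COL3A1 and SPX did not exceed 0.245, 0.325 and 0.312 FPKM in 5637, so their difference largely restates the UM-UC3 slope. Other listed genes low in 5637 include SLC2A3, ZEB2, AOX1 and HRK, at no more than 0.158, 0.402, 0.762 and 0.802 FPKM. HAPLN1 had 0, 0, 0.0386 and 1.53 FPKM in 5637 at 0, 1, 2 and 4 mM, so its slope there rests on the 4 mM library. All 49 kept their sign in the fits that left out any 1 of the 8 libraries. Without the UM-UC3 library at 4 mM 7 of the 49 still passed, without the 5637 library at 4 mM 16 did, and without any 1 of the other libraries 36 to 47 did. The lines were grown in different media, so line and medium cannot be told apart.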

How the results depend on the processing

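With the logarithm of dose in place of dose, 800 genes rose and 1220 fell. With a mean of at least 5 FPKM 1499 genes fell. With no filter 28805 genes were tested by limma and 0 rose and 0 fell, with 3344 and 3429 at an unadjusted p under 0.05. Over the fits without 1 library, 368 to 1946 rose and 647 to 2642 fell, the lowest without 4 mM. Slopes were higher in UM-UC3 for 31 to 1247 genes and lower for 84 to 1976 in such fits, lower for 1223 with a mean of at least 5, and higher for 573 and lower for 962 with no filter.

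Shapes moved with their limits. With a pseudocount of 0.1, 139 early genes were higher, 243 "only at 4 mM" genes lower and 732 non-monotone. With a mean of at least 5 FPKM, 694 genes were lower by 1 log2 unit, 50 early genes were higher and 80 lower, 562 graded and 81 "only at 4 mM" genes were lower, and 164 were non-monotone. With no filter 162 "only at 4 mM" genes were higher. For a difference of at least 2 log2 units, 111 were higher and 134 lower. For a range of at least 2, the higher and lower counts were 6 and 26 early, 75 and 98 graded, and 21 and 8 "only at 4 mM", with 58 non-monotone. With no step against the direction allowed, 49 early genes were higher, 34 and 31 "only at 4 mM" genes were higher and lower, and 895 were non-monotone, against 144 with steps of up to 0.5 allowed. With limits of 0.4 and 0.6, they were 191 and 464 early, 218 and 425 graded, and 264 and 373 "only at 4 mM". The cause of these moves beyond the limits' own construction was not tested.

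Of 126 genes named and tested, 105 passed. The logarithm of dose lost 33 of them, no filter 105, the fit on 8 libraries 3 (ASNS, STC2 and ENO2), and leaving out the 4 mM library 49, DMSO 21, 1 mM 15 and 2 mM 1. Beside those given in the report, the logarithm of dose lost ADAMTS1, AXL, BAD, BCL2, BCL2L11, BHLHE40, BIRC3, CALR, CASP8, ENO1, ENO2, FAS, GADD45B, ITGA3, ITGA6, KCNMA1, KLF2, LRP1, MCL1, MT-CO1, MT-CO2, MT-ND4, MYC, NDUFS7, PCNA, PLAUR, SLC11A2, SLC39A10 and STC2 (adjusted p between 0.0506 for MT-CO1 and 0.159 for BHLHE40). The direction turned for MCL1, which had passed (-0.04 and 1.3 as the lowest and highest without 1 library), and for genes that had not passed: FICD to 0.09 with the logarithm of dose, and others in the fits without 1 library. The lowest and highest log2 fold changes there were -1.28 and 2.45 for FICD, -1.93 and 0.46 for SDF2L1, -3.47 and 2.77 for FOS, -0.63 and 3.03 for HSP90AA1, -4.15 and 0.57 for INO80B-WBP1, -2.28 and 2.1 for RNASEK-C17orf49, -1.86 and 3.0 for RPL36A-HNRNPH2, -2.61 and 0.70 for HSPB1, -0.58 and 2.45 for THSD4, -0.63 and 2.05 for HSPA5, -0.42 and 0.21 for HIF1A, and -0.76 and 0.65 for PPARG. These fold changes are slopes scaled to 4 mM, so those without the 4 mM library run past the highest dose fitted, 2 mM. FICD and THSD4 stood 1.22 above DMSO at 2 mM, against 2.45 in that fit. No paired analysis was possible because each dose has 1 library and the labels give no shared replicate. Single libraries and unknown depth limit what these values can show, most for genes near 1 FPKM.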
